A study of Homo sapiens with 16 samples.

Results

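The genes described here are 8 keratins, KRT7, KRT8, KRT10, KRT18, KRT19, KRT80, KRT81 and KRT86, among the 61906 genes listed for HEK-293T and HT-1080 cells. They were picked by symbol, with their levels after the control siRNA in both lines in view, since KRT80 and KRT81 stand out in HT-1080. The control levels of both lines are therefore given as a description without a test, and only the response to the small interfering RNA (siRNA) was tested. The list covers most keratin RNA in these cells: the 8 genes made up 95.1% ± 0.283 (SD, n = 3) of the counts of all 55 listed keratins in HEK-293T controls and 98.8% ± 0.0203 (SD, n = 3) in HT-1080 controls.

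Keratins are the intermediate filament proteins of epithelial cells, and a filament forms only when an acidic type I keratin pairs with a basic type II keratin. KRT10, KRT18 and KRT19 are type I, and KRT7, KRT8, KRT80, KRT81 and KRT86 are type II. KRT8 and KRT18 are the pair of simple epithelia and the first keratins of the embryo, while KRT81 and KRT86 are hair keratins best known from the hair cortex. Cells of mesenchymal origin build their cytoplasmic filaments mainly from vimentin.

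HEK-293T is a line of human embryonic kidney cells in which the large T antigen of SV40 is expressed. HT-1080 comes from a human fibrosarcoma. Each line received 20 nM of an siRNA against HNRNPH1 (siHNRNPH1), which encodes a splicing factor, or of a negative control siRNA (siNegative), with RNA taken at 48 h. Each of the 4 groups has 3 short-read RNA-seq libraries, labelled as biological replicates, and 1 pool of full-length cDNA (IsoSeq). Both are established lines grown in culture, and neither was compared with epithelial tissue.

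The HEK-293T libraries held 107.7 to 121.0 M expected counts and the HT-1080 libraries 27.3 to 32.7 M. HNRNPH1 fell from a mean of 1111 to 335 counts-per-million (CPM) in HEK-293T and from 619 to 230 CPM in HT-1080. The library HEK-293T siHNRNPH1 replicate 1 stood apart, with a correlation of 0.929 and 0.922 with its replicates across 14416 genes against 0.998 between those, and HEK-293T results are given with and without it. In HT-1080, siNegative replicate 2 correlated at 0.995 with the other controls, against 0.998 between those. Of 9 mesenchymal markers, 8 reached 1 CPM in HT-1080 controls, with VIM at 4233, CD44 at 3037 and THY1 at 0.0233 CPM. In HEK-293T controls 8 of the 9 reached it too, and CDH2 was alike in both (90.5 CPM in HT-1080, 92.4 in HEK-293T). Of 5 HEK-293T markers, 5 reached 1 CPM in HEK-293T controls and 2 in HT-1080 controls. Among these, NEFL was higher in HT-1080 (110 against 66.9 CPM). Of the 7 simple epithelium markers, CDH1 and GRHL2 were at 0 in HT-1080 controls and the sum lay between 0.793 and 1.29 CPM. Most of that sum was CLDN4, at 0.996 CPM against 0.160 CPM in HEK-293T controls. The HEK-293T controls summed to 3.27 to 3.79 CPM with CDH1 at 2.25 CPM. Both lines were measured as bulk cultures, in which fewer cells with a transcript and less of it per cell cannot be told apart.

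HT-1080 controls held far more keratin RNA than HEK-293T controls. All keratins together took 0.389% ± 0.0362 of the HT-1080 counts and 0.00633% ± 0.0000759 of the HEK-293T counts (SD, n = 3 each). A mean of at least 1 CPM was reached by 11 keratins in HT-1080 and by 4 in HEK-293T, and 15 of the 55 had no count in any of the 12 libraries. The balance of the types was opposite as well: summed type II over type I counts came to 8.66 ± 0.165 in HT-1080 and 0.106 ± 0.00523 in HEK-293T.

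**Figure D1:**
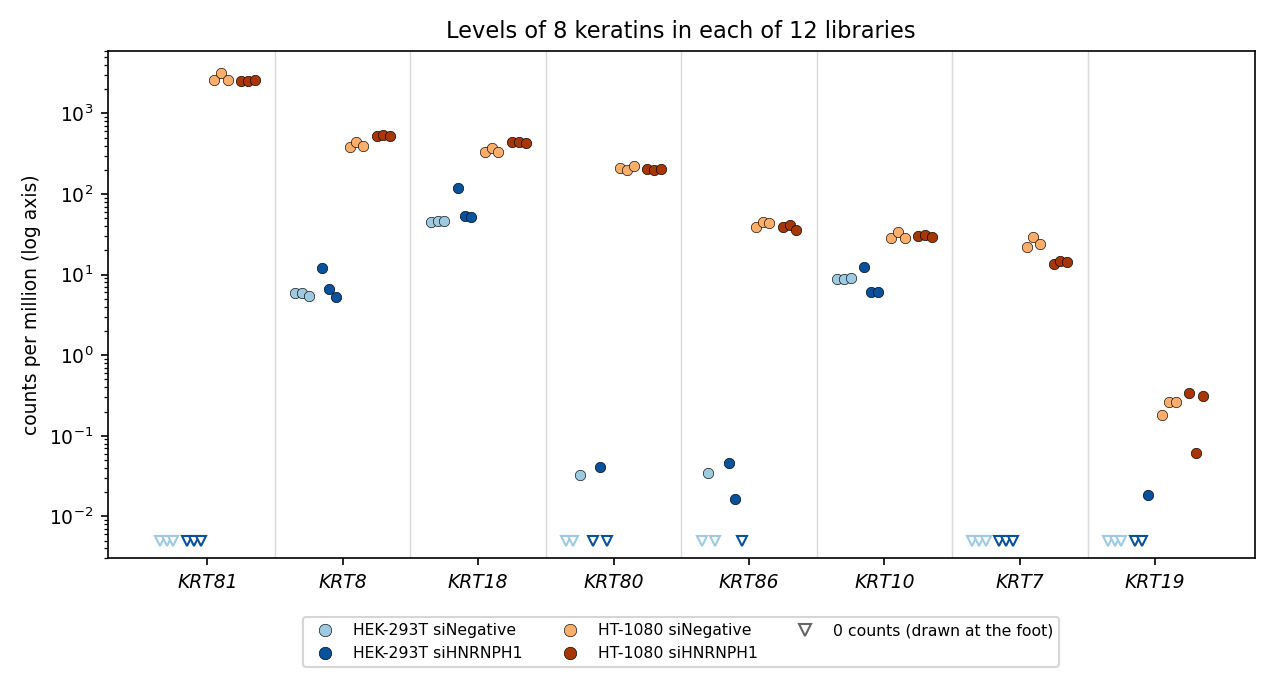
Level of each of the 8 keratins in every short-read library, in counts-per-million on a log axis. Each point is 1 library, coloured by group, and open triangles at the foot mark libraries with 0 counts. KRT81 lies between 2518 and 3137 CPM in the 6 HT-1080 libraries and at 0 in all 6 HEK-293T libraries.

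KRT81, a type II hair keratin, was the most abundant keratin in HT-1080. Its level was 2601, 3137 and 2610 CPM in the control libraries, and no count was listed for it in any HEK-293T library. Against a floor of 3 counts over the HEK-293T control group (0.00861 CPM), it was at least 323050-fold higher in HT-1080, and the lower 95% counting limit of the ratio was 263242. KRT81 held 71.5% ± 1.22 (SD, n = 3) of all keratin counts in HT-1080 controls.

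KRT86, the hair keratin encoded next to KRT81 and nearly identical to it in sequence, stood at 39.0, 44.9 and 44.1 CPM in HT-1080 controls. In HEK-293T controls it had 4 counts in replicate 2 and none in the others, a ratio of 3720 (95% counting interval 1455 to 13687). With KRT81 and KRT86 counts summed, the log2 ratio between the lines moved from 11.86 to 17.91. KRT81 counts exceeded KRT86 counts by a factor of 65.2 ± 5.50 in controls and 65.2 ± 5.37 after knockdown (SD, n = 3 each). Reads common to both copies are divided between them by the estimation, and the KRT81 gene lies inside the span of KRT86 on the other strand, so the split is uncertain. Other hair markers were low or at 0: KRT31 and KRT35 were at 0 in all 12 libraries, KRT85 had 0.262 CPM and KRT83 3.13 CPM in HT-1080 controls.

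KRT80, a type II keratin of differentiating epithelial cells, was at 212.7, 198.0 and 220.3 CPM in HT-1080 controls. HEK-293T controls held 4 counts of it in replicate 3 and none elsewhere, a ratio of 19094 (95% counting interval 7150 to 67208). KRT7, the type II keratin of ductal and glandular epithelia, was at 22.0, 29.4 and 23.8 CPM in HT-1080 controls and at 0 in every HEK-293T library, at least 2909-fold higher by the same floor, with a lower 95% counting limit of 2373.

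The simple epithelial pair was present in both lines. KRT8 was at 383.9, 436.1 and 394.5 CPM in HT-1080 controls and at 5.84, 5.94 and 5.43 CPM in HEK-293T controls, a ratio of 70.6 (95% counting interval 67.6 to 74.1). KRT18 was at 329.3, 375.5 and 334.8 CPM in HT-1080 controls and at 44.99, 46.0 and 45.7 CPM in HEK-293T controls, a ratio of 7.61 (95% counting interval 7.47 to 7.76). KRT18 counts were thus 7.95 ± 0.402 times the KRT8 counts in HEK-293T and 0.856 ± 0.00639 times in HT-1080 (SD, n = 3 each). Both have many processed pseudogenes, 51 listed for KRT8 and 68 for KRT18. The KRT8 pseudogenes held 47.3% ± 1.79 of the counts given to KRT8 and its copies in HEK-293T controls and 3.54% ± 0.0446 in HT-1080 controls. With the copies summed, the KRT8 log2 ratio between the lines moved from 6.14 to 5.27.

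KRT10, the type I keratin of the upper epidermal layers, had the smallest difference between the lines, with 28.3, 34.0 and 28.7 CPM in HT-1080 controls and 8.74, 8.78 and 9.06 CPM in HEK-293T controls, a ratio of 3.43 (95% counting interval 3.26 to 3.61). Its antisense gene KRT10-AS1 had 8.90 CPM in HT-1080 and 14.0 CPM in HEK-293T controls, and reads of overlapping genes may be assigned to either. KRT19, a type I keratin of simple and ductal epithelia, was close to the limit, with 5, 8 and 8 counts in the HT-1080 controls and 0 in all HEK-293T controls, at least 27.6-fold higher by that floor, with a lower 95% counting limit of 20.7. The counting intervals and floors cover counting error only.

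Set per kilobase of the median IsoSeq model length, the HT-1080 control levels ran from KRT81 at 2482 ± 274 CPM per kb over KRT8 at 274 ± 18.7, KRT18 at 255 ± 18.6 and KRT80 at 62.3 ± 3.36 to KRT7 at 32.1 ± 4.95 (SD, n = 3). KRT8 and KRT18 are neighbours in that order and did not differ beyond their spread. The other neighbours were separated by more than their SDs. With the longest model as the length, KRT81 came to 1411 ± 156 and KRT18 to 114 ± 8.29 CPM per kb, and the order was the same. With that length, KRT8 came to 220 ± 15.0, above KRT18 beyond the spread. KRT10, KRT19 and KRT86 were not placed on this scale. The models are listed once whatever their abundance, and some cover only part of a gene or keep introns. The longest KRT18 model, with 3046 bases in 2 exons, keeps introns that the 7-exon models lack. The values per kilobase therefore depend on which models give the length.

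In HT-1080, the knockdown moved the simple epithelial pair up and KRT7 down. Of the 8 keratins, 7 passed the filter on low counts and 6 were called at a Benjamini-Hochberg adjusted p under 0.05 in edgeR, 2 higher and 4 lower. In that comparison 65.3% of the 16145 genes tested were called, 32.7% higher and 32.6% lower, and the median log2 fold change was -0.14 over the 7 keratins and 0.01 over all genes. KRT19 was not tested, with 10, 2 and 9 counts after knockdown. The control and knockdown libraries also differed in markers outside the keratins, with VIM at 4233 against 2528 CPM and FN1 at 1003 against 3007 CPM, and their part in the keratin values was not tested.

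KRT7 had the largest change of the 7. It stood at 22.0, 29.4 and 23.8 CPM in controls and at 13.6, 14.6 and 14.5 CPM after knockdown. Every knockdown library lay below every control library. How often groups separate in this way over all genes was not counted, so no weight is put on it. The log2 fold change was -0.89 ± 0.11 (SE; edgeR adjusted p = 5.8e-05), and KRT7 was called in each of the 12 alternative fits, with log2 fold changes from -0.98 to -0.75, the latter without control replicate 2, where KRT7 was highest.

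KRT8 was at 383.9, 436.1 and 394.5 CPM in controls and at 527.3, 536.2 and 527.3 CPM after knockdown. KRT18 was at 329.3, 375.5 and 334.8 CPM in controls and at 442.3, 439.7 and 428.7 CPM after knockdown. For both genes the groups did not overlap, and how often this happens over all genes was not counted. The log2 fold change was 0.32 ± 0.06 for KRT8 (edgeR adjusted p = 7.3e-04) and 0.27 ± 0.06 for KRT18 (edgeR adjusted p = 0.0029). KRT8 rose slightly more than KRT18, with KRT18 over KRT8 at 0.856 ± 0.00639 in controls and 0.824 ± 0.0134 after knockdown (SD, n = 3 each). This ratio lay between 0.849 and 0.861 in controls and between 0.813 and 0.839 after knockdown, and it was not tested. Adding the pseudogene counts gave 0.33 ± 0.06 for KRT8 and 0.26 ± 0.06 for KRT18 (edgeR adjusted p = 5.7e-04 and 0.0031). Both calls were lost when all 12 libraries shared 1 estimate of spread (edgeR adjusted p = 0.43 and 0.58).

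The hair keratins and KRT80 fell by small amounts that depended on the settings. KRT81 was at 2601, 3137 and 2610 CPM in controls and at 2518, 2536 and 2569 CPM after knockdown, and the control replicate 2 was the high library. Its log2 fold change was -0.20 ± 0.08 (edgeR adjusted p = 0.042), -0.10 without control replicate 2 (edgeR adjusted p = 4.5e-05) and -0.13 with library-size scaling (edgeR adjusted p = 0.14). KRT86 was at 39.0, 44.9 and 44.1 CPM in controls and at 39.5, 41.8 and 36.1 CPM after knockdown, so the groups overlapped. Its log2 fold change was -0.19 ± 0.07 (edgeR adjusted p = 0.044), and the sum of KRT81 and KRT86 gave -0.20 ± 0.08 (edgeR adjusted p = 0.042).

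KRT80 was at 212.7, 198.0 and 220.3 CPM in controls and at 202.0, 195.9 and 203.0 CPM after knockdown, again with overlapping groups. Its log2 fold change was -0.14 ± 0.05 (edgeR adjusted p = 0.025) and -0.07 with library-size scaling (edgeR adjusted p = 0.23). The call was lost in 7 of 12 alternatives for KRT80 and in 5 of 13 each for KRT81 and KRT86, among them the removal of several single libraries, as listed with the processing alternatives. KRT10 was at 28.3, 34.0 and 28.7 CPM in controls and at 30.2, 30.8 and 29.1 CPM after knockdown, with a log2 fold change of -0.08 ± 0.08 (edgeR adjusted p = 0.37).

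**Figure D2:**
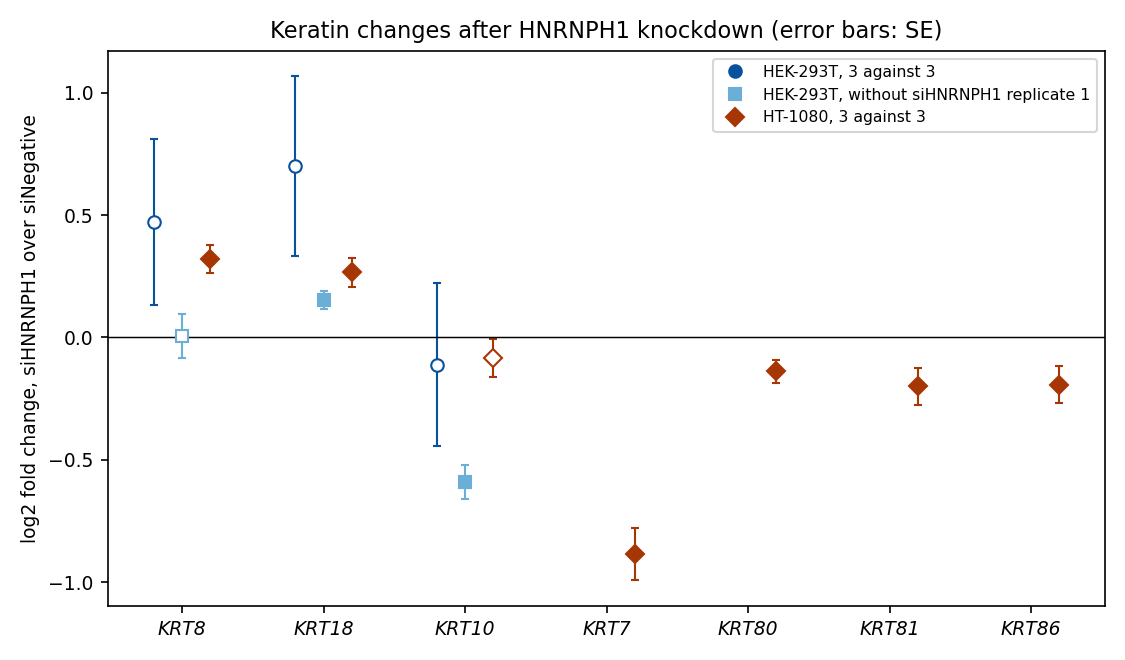
Log2 fold change of each tested keratin, siHNRNPH1 over siNegative, with the standard error as bars, in HEK-293T with all libraries, in HEK-293T without siHNRNPH1 replicate 1, and in HT-1080. Filled symbols passed an edgeR adjusted p under 0.05 and open symbols did not; KRT7 has the lowest value, -0.89, in HT-1080.

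The make-up of the keratin RNA in HT-1080 shifted while its total changed by less than the spread of the controls. All keratins summed to 3889 ± 362 CPM in controls and 3835 ± 18.3 CPM after knockdown (SD, n = 3 each). KRT81 held 70.5 to 72.9% of it in the control libraries and 66.0 to 66.7% after knockdown. The pair KRT8 and KRT18 held 18.8 to 19.7% in controls and 24.8 to 25.4% after knockdown. The ratio of type II to type I counts was 8.54 to 8.85 in controls and 6.80 to 7.11 after knockdown. The ranges did not overlap for any of the 3 measures, which were computed from the same counts and were not tested.

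**Figure D3:**
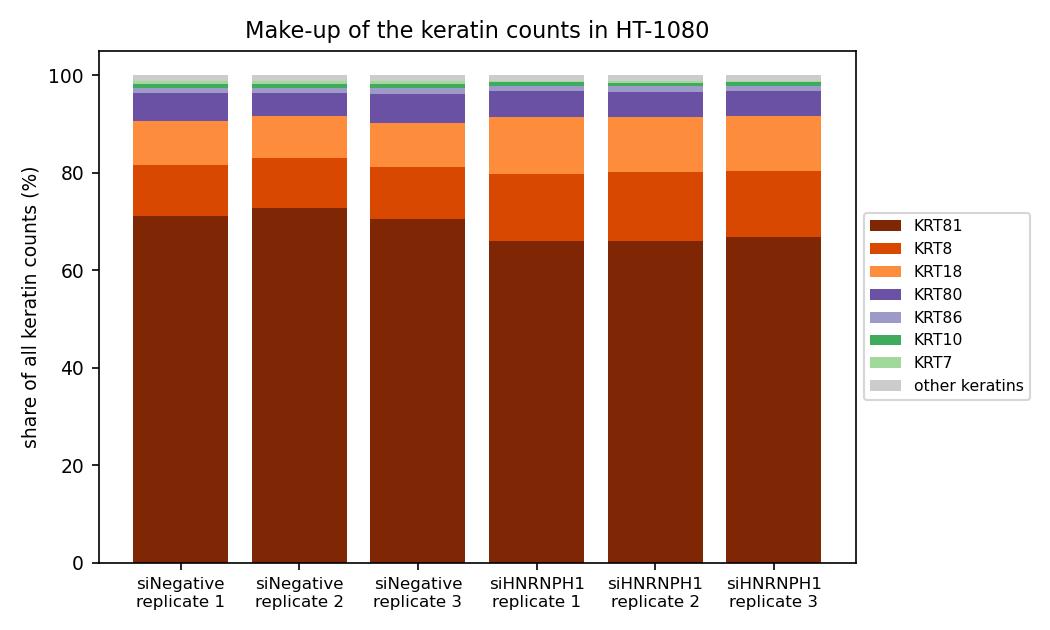
Share of all keratin counts held by each keratin in the 6 HT-1080 short-read libraries, as stacked percentages. The KRT81 block is above 70% in the 3 control libraries and below 67% in the 3 knockdown libraries, and the blocks of KRT8 and KRT18 are wider after knockdown.

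In HEK-293T, 3 of the 8 keratins could be tested, and 0 were called by edgeR, where 10.0% of 19966 genes were called, 5.12% higher and 4.88% lower. At an unadjusted p under 0.05 the count was also 0, but the share of all genes at that threshold was not counted. The other 5 keratins were near or at 0: KRT7 and KRT81 had no count in any of the 6 libraries, and KRT19, KRT80 and KRT86 had at most 5 counts in a library. DESeq2 called 0 of the 6 it tested. KRT19, KRT80 and KRT86 were among these, and for them the lack of a call carries no information. The DESeq2 count over all genes is given with the processing alternatives.

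KRT18 was at 44.99, 46.0 and 45.7 CPM in HEK-293T controls and at 117.6, 54.1 and 51.4 CPM after knockdown. All knockdown libraries lay above all controls, and replicate 1 lay far above the other two. The log2 fold change was 0.70 ± 0.37 with all libraries (edgeR adjusted p = 0.29) and 0.15 ± 0.04 without that replicate (edgeR adjusted p = 9.5e-04), where 61.8% of genes were called, 30.5% higher and 31.3% lower.

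KRT8 was at 5.84, 5.94 and 5.43 CPM in controls and at 12.1, 6.67 and 5.30 CPM after knockdown, with overlapping groups. Its log2 fold change was 0.47 ± 0.34 (edgeR adjusted p = 0.43), and 0.01 ± 0.09 without replicate 1 (edgeR adjusted p = 0.96). KRT10 was at 8.74, 8.78 and 9.06 CPM in controls and at 12.5, 6.11 and 6.13 CPM after knockdown, so replicate 1 lay above the controls and the others below. Its log2 fold change was -0.11 ± 0.33 (edgeR adjusted p = 0.86) and -0.59 ± 0.07 without replicate 1 (edgeR adjusted p = 1.2e-07). Each of the 3 genes was highest in the knockdown library that stood apart, and what sets that library apart was not tested.

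The difference of the responses between the lines was fitted for all 8 keratins, and 0 were called. Only 3 of them had enough HEK-293T counts for a response there to be estimated. For the 3 present in both lines, as the HT-1080 effect minus the HEK-293T effect, it was -0.52 ± 0.41 for KRT18, -0.24 ± 0.38 for KRT8 and -0.06 ± 0.38 for KRT10 on the log2 scale (edgeR interaction, adjusted p = 0.43, 0.74 and 0.98), where 19.0% of 21276 genes were called, 8.13% higher and 10.8% lower. Without HEK-293T siHNRNPH1 replicate 1, KRT10 differed by 0.46 ± 0.10 (edgeR adjusted p = 0.0012), KRT8 by 0.26 ± 0.11 (edgeR adjusted p = 0.056) and KRT18 by 0.06 ± 0.07 (edgeR adjusted p = 0.54), with 49.0% of genes called, 22.7% higher and 26.4% lower. For the other 5 keratins no fitted difference is given, since the HEK-293T libraries held at most 5 counts of each. These 5 passed the filter through their HT-1080 counts, so the lack of a call for them carries no information. At an unadjusted edgeR interaction p under 0.05 the count among the 8 was 0 with all libraries and 2 without that replicate. The share of all genes at that threshold was not counted, so no weight is put on these counts.

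Transcripts of the keratins were compared as well, because HNRNPH1 acts on splicing. The 8 keratins have 54 listed transcripts, and those that passed the filter were tested. In HT-1080, 4 of them were called by edgeR, 2 higher and 2 lower, where 16.1% of 64605 transcripts were called, 7.91% higher and 8.18% lower. They were ENST00000692008.1 of KRT8 (0.38 ± 0.06, adjusted p = 0.011), ENST00000388835.4 of KRT18 (0.33 ± 0.06, adjusted p = 0.021), ENST00000552322.5 of KRT7 (-0.79 ± 0.16, adjusted p = 0.022) and ENST00000394815.3 of KRT80 (-0.27 ± 0.05, adjusted p = 0.015). In HEK-293T no keratin transcript was called or had an unadjusted p under 0.05, where edgeR called 0.248% of 89488 transcripts, 0.0983% higher and 0.150% lower. Without replicate 1, ENST00000269576.6 of KRT10 (-0.63 ± 0.08, edgeR adjusted p = 0.0083) and ENST00000388835.4 of KRT18 (0.17 ± 0.03, edgeR adjusted p = 0.034) were called there. In that fit 16.0% of 96155 transcripts were called, 7.29% higher and 8.71% lower. None of the keratin counts is read as above or below the share over all transcripts.

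KRT80 had the largest shift between transcripts among the shares tested in HT-1080. ENST00000313234.9 held 31.4, 29.8 and 32.8% of the KRT80 counts in HT-1080 controls and 41.1, 39.8 and 37.2% after knockdown. ENST00000394815.3 held 65.8, 67.7 and 64.1% in controls and 56.0, 57.8 and 60.3% after knockdown. The groups did not overlap. How often this happens over all transcripts was not counted, so no weight is put on it here or for KRT8 and KRT18 below. These KRT80 transcripts hold nearly all its counts, so a rise of one share entails a fall of the other. The shift was 8.03 points for the first, with an exact permutation p of 0.1 (two-sided, adjusted p = 0.26 over 13 shares), which is the smallest that 3 against 3 libraries can give. As a level, the first transcript had a log2 fold change of 0.24 ± 0.08 (edgeR adjusted p = 0.11).

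The main transcripts of the other keratins kept most of their gene. ENST00000692008.1 held 93.4% ± 0.201 of KRT8 in HT-1080 controls and 94.2% ± 0.482 after knockdown (SD, n = 3 each). In HEK-293T, its share was 84.4, 80.7 and 79.3% in controls and 90.04, 88.9 and 86.95% after knockdown (exact permutation p = 0.1, adjusted p = 0.26), and the groups did not overlap with or without replicate 1. ENST00000552322.5 of KRT7 held 73.2% ± 2.45 in controls and 76.0% ± 1.77 after knockdown in HT-1080. ENST00000550153.1 of KRT7 held 12.7% ± 2.88 and 6.53% ± 3.89 there, and both KRT7 shares had overlapping groups. In HT-1080, the groups did not overlap for ENST00000692008.1 of KRT8 and ENST00000388835.4 of KRT18 (exact permutation p = 0.1, adjusted p = 0.26 for each). The KRT18 transcript held 94.1% ± 0.312 in controls and 95.2% ± 0.333 after knockdown. KRT81 has 1 listed transcript, so its short-read values hold no share.

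**Figure D4:**
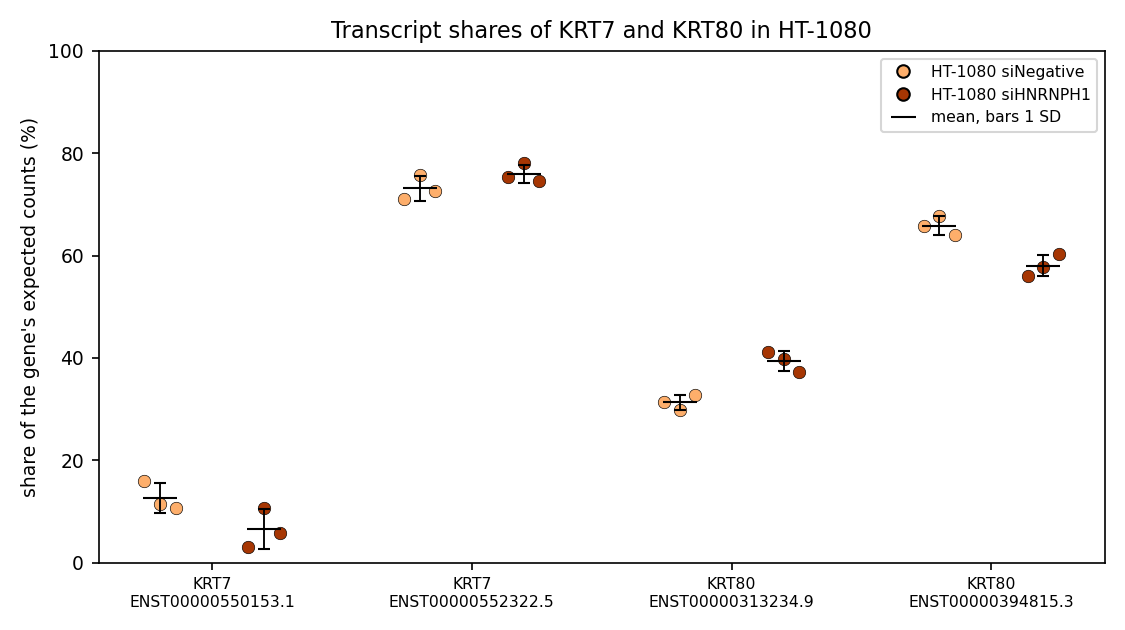
Share of a gene's expected counts held by the transcripts of KRT7 and KRT80 with at least 10% in a group, in HT-1080. Points are libraries, and the dashes and bars give the mean and 1 SD; both KRT80 transcripts have control and knockdown points that do not overlap, while those of KRT7 do.

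The IsoSeq pools show the structure of these transcripts, with each model listed once whatever its abundance. KRT80 had 32 models in the HT-1080 control pool and 22 in the knockdown pool, on the minus strand of chromosome 12 between 52168997 and 52192349 (GRCh38, the build of the submitters' notes). The commonest model start was 52192014, used by 11 of the 32 and 10 of the 22. Models with 9 exons, the largest number seen, were 18 and 13. Most models ended at 1 of 2 sites 530 bases apart: the distal one at 52168998 held 59.4% of control models and 59.1% of knockdown models, and the proximal one at 52169528 held 34.4% and 36.4%.

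The last exon of KRT80 began at 1 of 2 positions 35 bases apart in all but 2 models of each pool. The one at 52171522, was used by 19 of the 32 control models and 12 of the 22 knockdown models. The one farther upstream, 52171557, was used by 11 and 8. Which listed short-read transcript carries which last exon was not analysed here. No KRT80 model was found in either HEK-293T pool.

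KRT81 had 15 models in the HT-1080 control pool and 12 in the knockdown pool and none in HEK-293T. All of them ended within 10 bases of 52285915 on the minus strand of chromosome 12. Their 5′ ends were spread over 1437 bases in the control pool and 1427 bases in the knockdown pool, the farthest at 52288592 and 52288582. The commonest 5′ end, 52288146 to 52288150, was used by 6 and 4 models, and the models had 2 to 6 exons and at most 1972 exonic bases. The fixed 3′ end and staggered 5′ ends were alike in both pools. No model started upstream of 52288592, and whether any model covers the whole listed KRT81 transcript was not analysed here. These models are therefore not read as the full KRT81 message.

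**Figure D5:**
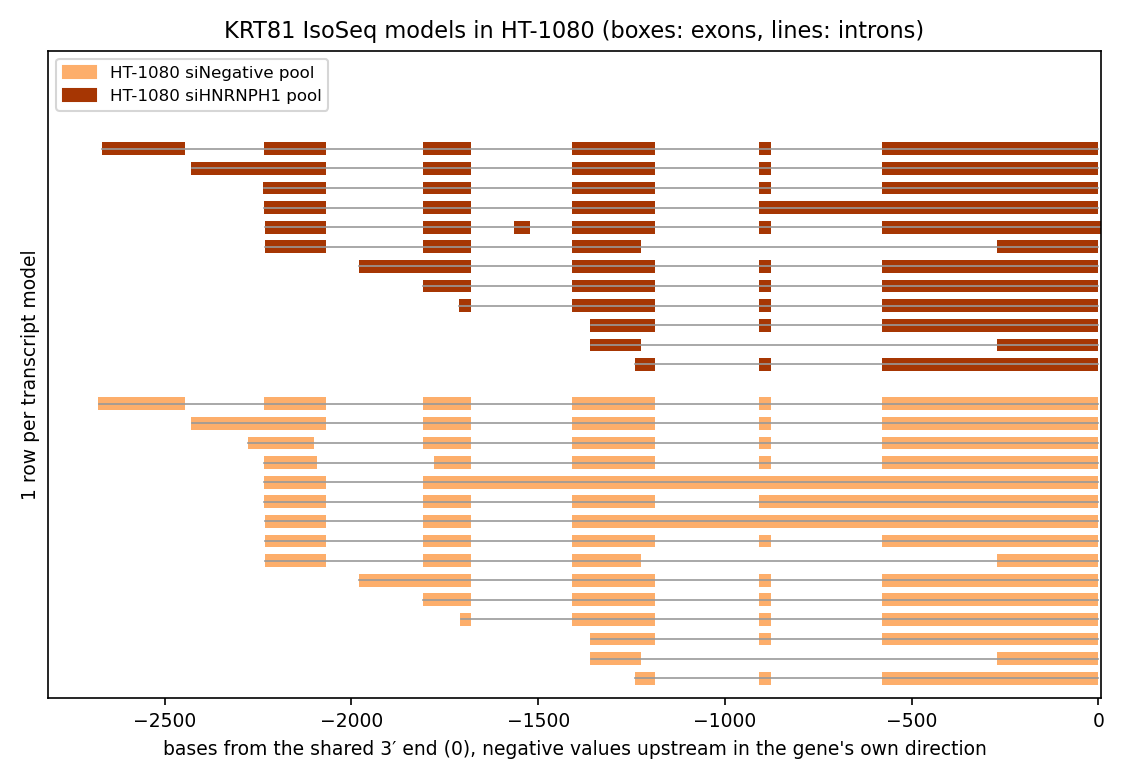
KRT81 transcript models in the HT-1080 IsoSeq pools, 1 row per model, with exons as boxes and introns as lines, placed by the distance in bases from the shared 3′ end. All models meet at the right edge, while their left ends are spread over 1437 bases in the control pool and 1427 bases in the knockdown pool.

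KRT7 had 4 models in the HT-1080 control pool and 1 in the knockdown pool, all with 3 or 4 exons, starting at 52244338 or later on the plus strand of chromosome 12. A further knockdown model started at 52244363, a KRT7 start also seen in the control pool, ran through 2 exons in KRT7, crossed an intron of 56280 bases and continued with 9 exons to 52309161 at KRT86. It was the only KRT86 model on its own strand in the 4 pools. It is a single model, and its abundance is not given. By these coordinates the KRT81 models lie inside that intron, on the other strand. The pseudogene KRT87P had 31.9 CPM in HT-1080 controls and 32.4 CPM after knockdown.

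KRT18 had 8 models in each HT-1080 pool and 1 in each HEK-293T pool, on the plus strand of chromosome 12 up to 52952900. The 7-exon model starting at 52949117 appeared in the HEK-293T control pool and both HT-1080 pools. By strand and RefSeq span, KRT8 was matched to 6 models in the HT-1080 control pool, 9 in the knockdown pool, 1 in the HEK-293T knockdown pool and none in the HEK-293T control pool. In the control pool all 6 ended at 52897193 on the minus strand and started no farther upstream than 52905138. In the knockdown pool 1 model started at 52926469, and 2 short models of 3 exons, with 406 and 452 exonic bases, overlapped the first exon of KRT18 on the opposite strand. These 2 lie upstream of 52926469 and share no exon with the other models matched to KRT8. The count of 9 is therefore not read as a gain of KRT8 models. KRT10 had 2 models of 2 exons in each HT-1080 pool, on chromosome 17, and KRT19 had none.

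The KRT8 model from 52926469 begins where RefSeq places a KRT8 start. RefSeq promoters (GRCh38.p14) were given for 2 of the 8 keratins, KRT8 and KRT10, and the KRT8 entry starts at 52926469, the base used by that 1 model and by none of the 6 control models. The windows from 45 to 16 bases before those starts are shown because a TATA box, spelled TATAAA and marked in capitals, would lie there. The KRT8 window is chr12:52926485-52926514 and the KRT10 window chr17:40822630-40822659, both on the minus strand and written 5′ to 3′.
KRT8: tgactggggcaggctttgtggggaggtgcc
KRT10: acacaccctctcagtaTATAAAggcttgtc
The motif was present for KRT10 and not in the KRT8 window, and 2.38% of 35116 RefSeq promoters hold it in the same window on the same strand (3.01% on either strand). A match of letters is a description, and the control start of KRT8 was not searched.

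The other 47 keratins added little RNA. In HT-1080, 7 of them were tested, 2 were higher and 2 lower, where 65.3% of all genes were called, with a median log2 fold change of 0.02 against 0.01 over all genes tested. KRT15, a type I keratin of basal epithelial cells, was at 23.2 ± 1.86 CPM in controls and 14.5 ± 0.371 CPM after knockdown (SD, n = 3), with a log2 fold change of -0.75 ± 0.07 (edgeR adjusted p = 1.4e-05). KRT3, the type II keratin of the cornea, rose from 1.65 to 2.82 CPM (0.70 ± 0.17, edgeR adjusted p = 0.0052), and KRT79 from 15.0 to 19.5 CPM (0.31 ± 0.09, edgeR adjusted p = 0.015). The KRT79 call was lost in 4 of 12 alternatives, without control replicate 1 or 3, without knockdown replicate 2 and with a shared spread (edgeR adjusted p up to 0.15), and that of KRT3 in 1, with a shared spread (edgeR adjusted p = 0.051). KRT2 fell from 0.508 to 0.0228 CPM and is named after its values were seen. KRT83 (3.13 and 3.33 CPM) and KRT34 (0.942 and 1.17 CPM) were not called. In HEK-293T, KRT222 was the only one tested, at 3.01 and 2.75 CPM and not called. Of the keratin pseudogenes, 13 of 138 were tested in HEK-293T, 1 of them lower (2 higher and 2 lower without replicate 1), and 7 in HT-1080, 1 higher and 1 lower, where 10.0% and 65.3% of all genes were called.

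The profile most like that of 6 of the keratins across the 12 libraries was sought among 16292 genes, by the root mean square difference of centred log2(CPM + 1) values. KRT7 lay nearest to KRT15 (0.07), which is of the other type. KRT8 was nearest to MVP (0.12), KRT18 to BBC3 (0.10), KRT10 to PPP1R16A (0.09), KRT80 to CSRP1 (0.10) and KRT86 to DNAJC15 (0.07). The measure takes in the gap between the lines together with the response.

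Genes that work with keratins were counted by list in HT-1080. There, 65.3% of all genes were called, 32.7% higher and 32.6% lower, and the list counts stand against those shares. Of 21 desmosome, hemidesmosome and keratin linker genes, 12 were tested, 7 were higher and 3 lower, with a median of 0.24. They included the desmosomal protein PERP (56.3 to 177 CPM, 1.58 ± 0.04, edgeR adjusted p = 6.0e-09) and the plakoglobin gene JUP (32.2 to 76.0 CPM, 1.17 ± 0.06, edgeR adjusted p = 1.8e-07), with PKP4 lower (-0.45 ± 0.05, edgeR adjusted p = 4.2e-05). Of 15 other intermediate filament genes, 7 were tested, 2 were higher and 5 lower, with a median of -0.51. The lamin LMNB1 (-2.44 ± 0.06), LMNB2 (-0.83 ± 0.04) and vimentin (VIM, -0.81 ± 0.05) were among the lower ones (edgeR adjusted p = 5.2e-09, 1.1e-07 and 5.0e-07).

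Of 24 epithelial identity genes, 7 were tested in HT-1080, where 65.3% of all genes were called, and 3 were lower, among them KLF5 (-0.95 ± 0.13, edgeR adjusted p = 1.1e-04), with none higher, while KRT8 and KRT18 were higher in the same libraries. Of 20 mesenchymal genes, 17 were tested, 9 higher and 6 lower, with a median of 0.22. COL5A1 (1.51 ± 0.07), CDH11 (1.28 ± 0.06) and MMP2 (0.73 ± 0.04) were higher (edgeR adjusted p = 8.2e-08, 6.4e-08 and 2.2e-07).

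In HEK-293T, where 10.0% of all genes were called, the desmosome and linker list had 14 genes tested and 2 higher, the desmosomal cadherin DSC2 (1.48 ± 0.33) and the linker PLEC (0.62 ± 0.14), with none lower (edgeR adjusted p = 0.046 and 0.048). Of 13 filament genes tested, 4 were higher and 0 lower, among them the neuronal filament genes INA (0.81 ± 0.11), NEFM (0.80 ± 0.12) and NEFH (1.38 ± 0.28; edgeR adjusted p = 0.011, 0.018 and 0.036). Of 18 epithelial identity genes tested, 4 were higher and 1 lower, with the splicing regulator ESRP2 (0.81 ± 0.14), the adhesion gene EPCAM (0.95 ± 0.17) and MARVELD3 (1.04 ± 0.19) higher (edgeR adjusted p = 0.022, 0.024 and 0.028). Of 18 mesenchymal genes tested, 4 were higher and 0 lower, including SNAI2 (1.07 ± 0.12), COL5A1 (0.76 ± 0.12) and PDGFRB (1.16 ± 0.19; edgeR adjusted p = 0.0083, 0.018 and 0.021). Without replicate 1 the counts of higher and lower genes were 5 and 5 of 15, 5 and 5 of 13, 10 and 3 of 18, and 9 and 3 of 18, in the same order of lists, where 61.8% of all genes were called. Each of the 11 calls named here was lost without any 1 control library, without siHNRNPH1 replicate 2 and with the replicate block, with edgeR adjusted p up to 0.19 for DSC2, 0.23 for PLEC, 0.11 for INA, 0.13 for NEFM and 0.16 for NEFH. The highest adjusted p in edgeR was 0.14 for ESRP2 and EPCAM, 0.15 for MARVELD3, 0.084 for SNAI2 and 0.13 for COL5A1 and PDGFRB.

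The response also differed between the lines for some list genes, where 19.0% of all genes were called. Higher and lower calls were 3 and 0 of 15 desmosome and linker genes, and 2 and 3 of 13 filament genes. They were 0 and 1 of 18 epithelial and 3 and 4 of 18 mesenchymal genes. Among them, PERP, JUP, LMNB1 and KLF5 differed by 1.63, 1.08, -2.17 and -1.43 on the log2 scale (edgeR interaction, adjusted p = 6.1e-06, 0.029, 1.4e-05 and 0.0048). Without HEK-293T siHNRNPH1 replicate 1 the differences were 1.64, 1.44, -2.29 and -1.63 (edgeR adjusted p = 2.9e-12, 8.8e-10, 8.1e-13 and 2.8e-08). There 49.0% of all genes were called, and the list counts were 5 and 3 of 15, 2 and 5 of 13, 0 and 3 of 14, and 5 and 8 of 18. The HEK-293T change of JUP reversed its sign in 5 of 12 alternative fits.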

How the data were processed

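The authors deposited expected counts per transcript, estimated with RSEM, in 1 table per cell line, and IsoSeq transcript models as exon positions (other unit: coordinates without abundance). The genome build GRCh38.p13 and RSEM come from the submitters' processing notes. The RSEM version, aligner, annotation release and strandedness are not given in the sources used here, so overlapping and antisense genes cannot be told apart. Expected counts of 251295 transcripts were summed per gene identifier and rounded, and CPM is counts-per-million of the library total. Of 61906 genes, 60967 carried the same symbol in a table of gene names, all 8 keratins included.

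Each line was tested on its 6 libraries with edgeR 4.0.16 in R 4.3.3 (filterByExpr, TMM scaling, robust quasi-likelihood test, two-sided), and the lines were compared by an interaction term over 12 libraries. Standard errors are the log2 fold change over the root of the F statistic. p-values were Benjamini-Hochberg adjusted over all genes or transcripts tested, with a threshold of 0.05. DESeq2 1.42.0 was an alternative. The fits were tested on simulated data. Transcript shares used exact permutation tests. IsoSeq models were matched to genes by strand and an overlap of most of the model with the RefSeq gene. The keratins and the gene lists were chosen with earlier results of these data known. Named genes are the 8 keratins, the other keratins with at least 1 CPM in a group, and up to 3 genes per list and line with the smallest adjusted p among those called with a mean of at least 50 counts. No rank among all genes is given, since counts were not scaled by length.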

Additional observations from a re-analysis of the deposited data

How the results depend on the processing

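The number of HEK-293T genes called moved from 1997 to 0 with the replicate block, 1302 without the expression filter, 3461 with DESeq2 and 4551 with a shared spread, and ran from 0 to 12557 without single libraries. HEK-293T transcripts called moved from 222 to 87 without the filter and 0 with the replicate block, and ran from 0 to 15382. HT-1080 genes called moved from 10538 to 6237 with a shared spread, and transcripts from 10398 to 4886 with the replicate block and 6038 to 9622 without single libraries. The interaction count moved from 4036 to 2535 with the replicate block and ran from 2776 to 9535 without single libraries. Of the 8 keratins, the number called in HEK-293T rose from 0 to 2 without siHNRNPH1 replicate 1. In HT-1080 it fell from 6 to 3 with library-size scaling and to 1 with a shared spread, and ran from 3 to 6 without single libraries. KRT80 lost its call without control 1 or 3 or any 1 knockdown library, KRT81 without any 1 knockdown library, and KRT86 without control 3 or knockdown 1 or 3. An interaction fit with copies summed was chosen after seeing the data. Whether same-numbered libraries form pairs is not settled. The correlations of their deviations were all positive, at 0.123, 0.119 and 0.0346 in HEK-293T and 0.025, 0.115 and 0.0604 in HT-1080. Each siNegative library correlated best with the siHNRNPH1 library of its own number. HEK-293T siHNRNPH1 replicate 3 correlated best with siNegative replicate 2 (0.0872), and HT-1080 siHNRNPH1 replicate 1 with siNegative replicate 3 (0.0599). The main fits did not use the numbers, and the replicate block did.

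Directions turned in these results, given as log2 fold changes, with each range taken over the fits without single libraries. KRT10 in HEK-293T ran from -0.5914 to 0.0776 without single libraries, with 0.0706 without siHNRNPH1 replicate 3. KRT10 in HT-1080 ran from -0.1399 to 0.0073, and KRT83 from -0.0446 to 0.1113. The KRT10 interaction ran from -0.2643 to 0.4575 and was 0.087 with library-size scaling, 0.0673 with no filter and 0.0669 with the replicate block. The KRT8 interaction ran from -0.4893 to 0.2627 and that of KRT18 from -0.7583 to 0.0616. JUP in HEK-293T ran from -0.3248 to 0.1843 and was -0.018 with no filter, -0.0481 with the block and -0.0006 with DESeq2, while LMNB2 there ran from -0.0093 to 0.1768. SNAI2 in HT-1080 ran from -0.0317 to 0.0305 and was -0.0161 with no filter, -0.0071 with DESeq2 and -0.0078 with a shared spread. The causes were not tested. KRT19 had at most 10 counts in a library and did not pass the edgeR filter within either line.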
